A study of Mus musculus with 12 samples.

Results

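Expression of Tnf and of 9 genes of the NF-kB system was examined in mouse bone marrow macrophages after neutralization of integrin α5 (ITGA5), the subunit that pairs with integrin β1 to form the main fibronectin receptor. The genes were taken by symbol from the deposited tables. They were Tnf, the 5 subunit genes Nfkb1, Nfkb2, Rela, Rel and Relb, and 4 genes grouped here as inhibitors, Nfkbia, Nfkbie, Nfkbiz and Tnfaip3. These are 10 genes of the 54532 in the tables. Each symbol had 1 gene ID, and all 10 passed the filter on low counts in every comparison. The macrophages came from wild-type C57BL/6J mice and were cultured with CSF-1. The labels name tibial marrow. Isotype IgG or an anti-ITGA5 antibody was present at 10 µg/ml for 24 h, on dishes without coating or on dishes coated with fibronectin at 10 µg/ml. The 4 groups are named by antibody (IgG or anti-ITGA5) and by coating (with or without fibronectin). Each group had 3 libraries, described by the study as biologically independent experiments. The antibody acts on the protein, so Itga5 mRNA, at 44.5 to 53.1 FPKM in every library, does not check the labels.

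NF-kB transcription factors are dimers of 5 related subunits. In resting macrophages most dimers are held in the cytoplasm by IkB proteins. Signals from Toll-like or TNF receptors activate the IkB kinase complex, which marks IkB for degradation and lets the dimers enter the nucleus. Several of the genes they switch on, Nfkbia and Tnfaip3 among them, encode inhibitors that close a negative feedback loop, while Tnf encodes a cytokine that can start the cycle again.

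Library totals on genes ran from 12954342 to 22075432 counts, of which these 10 genes took 0.0442% to 0.0506%. The libraries of anti-ITGA5 without fibronectin differed most from each other, with a chi-square per gene of 11.4 to 25.6 between replicates against 2.79 to 8.13 in the other groups. Replicate 2 of that group had the fewest counts. All 8 macrophage markers examined reached 1 FPKM in every library. The summed level of the 7 fibroblast, 4 dendritic cell and 6 lymphocyte markers stayed below that of any single member, at no more than 0.481 FPKM for each list. The 8 neutrophil markers summed to 5.71 to 10.4 FPKM. In bulk RNA, fewer cells of a type and less RNA per cell cannot be told apart.

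Upon ITGA5 neutralization with fibronectin, the feedback inhibitors Nfkbia and Tnfaip3 fell, whereas Tnf and Rel rose. Nfkbia expression fell by 23.5% and Tnfaip3 expression by a similar amount, with fold changes of 0.765 and 0.773. Tnf was 1.15-fold and Rel 1.12-fold of IgG. The call of Rel was lost in 13 of 16 alternative analyses and that of Tnf in 5 of 16. Of all genes tested, 27.6% were called in this comparison. Without fibronectin, Tnfaip3 was the member that passed the test, with a fold change of 0.825. That call was lost in 8 of 16 alternatives, and 20.8% of all genes were called. The remaining subunit genes, Rela, Nfkb1, Nfkb2 and Relb, passed the test in neither antibody comparison.

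The sequences before the start sites of the inhibitor genes are shown because Nfkbia and Tnfaip3 are textbook targets of the factor they restrain, and because both fell with the antibody. They were taken from RefSeq promoter windows on GRCm38.p6, which held 7 of the 10 genes. Nfkb1, Relb and Nfkbiz were not searched. The 250 bases before each start were searched on both strands for the NF-kB consensus, a 10-base motif, and overlapping matches were merged. Capitals mark the matched bases, and all sequences read 5′ to 3′ along the gene. The window of Nfkbia (chr12:55492648-55492797, minus strand, 150 bases ending at the base before the start) holds 1 match. The window of Nfkbie (chr17:45555550-45555699, plus strand) also holds 1. The window of Tnf (chr17:35202008-35202157, minus strand) holds none.
Nfkbia: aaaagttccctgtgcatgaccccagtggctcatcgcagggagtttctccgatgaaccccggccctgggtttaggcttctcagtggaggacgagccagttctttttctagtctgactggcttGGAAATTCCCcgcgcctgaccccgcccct
Nfkbie: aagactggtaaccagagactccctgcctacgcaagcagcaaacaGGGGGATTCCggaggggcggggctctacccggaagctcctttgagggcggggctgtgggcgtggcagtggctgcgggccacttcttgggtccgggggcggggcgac
Tnf: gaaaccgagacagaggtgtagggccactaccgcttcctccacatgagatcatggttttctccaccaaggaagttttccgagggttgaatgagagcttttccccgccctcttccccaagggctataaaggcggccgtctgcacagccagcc

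For the genes whose windows overlap an annotated exon, only the matched site is shown, within 30 bases. They are given because Tnfaip3 and Rel were the other members past the test. Tnfaip3 has 2 matches before the upstream of its 2 annotated starts, within chr10:19015516-19015545 and chr10:19015411-19015440 on the minus strand. Rel has 1, within chr11:23771042-23771071 on the minus strand.
Tnfaip3, first site: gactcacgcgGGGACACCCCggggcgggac
Tnfaip3, second site: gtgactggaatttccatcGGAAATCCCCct
Rel: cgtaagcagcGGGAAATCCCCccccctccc

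**Figure D1:**
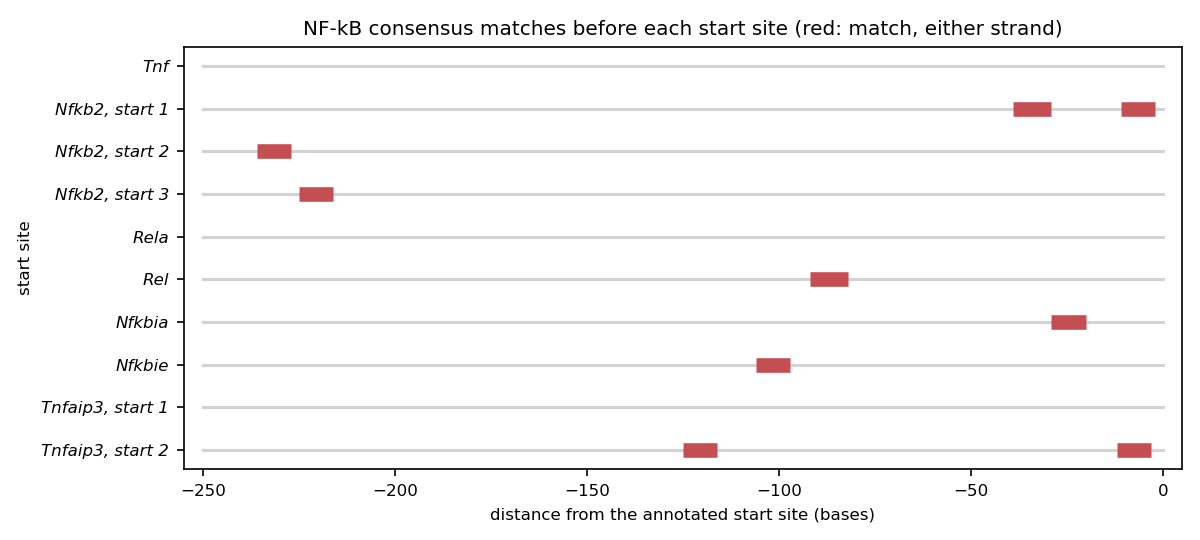
Position of matches to the NF-kB consensus (red) in the 250 bases before each annotated start site of the 7 genes in the RefSeq table, in bases from the start. Matches lie before starts of Nfkb2, Rel, Nfkbia, Nfkbie and Tnfaip3, and none lies in the windows of Tnf and Rela.

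Of the 7 genes in the table, 5 had a match before at least 1 start. Counted by window, 7 of their 10 windows held one, beside 7.25% of all 32851 windows of the table. Nfkb2 was the member with the most matches, 4 over 3 annotated starts. The match of Nfkbia lies from position -29 to -20 relative to the start, and the Tnfaip3 match nearest to its start lies from -12 to -3. Members with a match did not share a direction, since Nfkbia and Tnfaip3 fell and Rel rose with fibronectin, and Tnf, without a match, also rose. A match is a description of the sequence and no evidence of binding. The absence of a match says that these letters are not in this window.

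Tnf, the inflammatory cytokine (ENSMUSG00000024401, chromosome 17, 35199381 to 35202007, minus strand), had 448 to 774 counts per library. Without fibronectin its level was 15.8, 18.6 and 20.2 FPKM (fragments per kilobase of gene, scaled to the size of the library) in IgG and 20.5, 22.1 and 21.6 FPKM upon ITGA5 neutralization. With fibronectin it was 20.6, 20.7 and 21.5 FPKM in IgG and 24.3, 24.6 and 23.6 FPKM upon ITGA5 neutralization. On either coating every anti-ITGA5 library was above every IgG library. With fibronectin the mean rose from 20.9 ± 0.464 to 24.2 ± 0.489 FPKM (SD, n = 3), and the log2 fold change was 0.21 (SE, standard error, 0.0591; Benjamini-Hochberg adjusted p = 0.0207 by the quasi-likelihood F test of edgeR, used for all adjusted p-values here). Without fibronectin the means were 18.2 ± 2.20 and 21.4 ± 0.789 FPKM (SD, n = 3), with a log2 fold change of 0.24 (SE 0.0892, adjusted p = 0.0879). This rise passed in 2 of 16 alternative analyses, both at a log2 fold change of 0.24. They were all 12 libraries in one fit (adjusted p = 0.0334) and a block on replicate number (adjusted p = 0.0410). The spread of the IgG libraries was larger without coating, and the log2 fold change there was 0.14 (adjusted p = 0.2996) without IgG without fibronectin replicate 1, the lowest library. The call with fibronectin was lost without IgG with fibronectin replicate 1 or 2, without anti-ITGA5 with fibronectin replicate 1 or 2, and with all 12 libraries in one fit, where adjusted p-values were 0.0752, 0.0709, 0.0683, 0.0604 and 0.0555.

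The 4 groups stood, for Tnf, in the order IgG without and then with the coating, followed by anti-ITGA5 without and then with it. Its lowest group lay clear of the next and its highest group lay clear of the rest, while the libraries of the middle pair overlapped. For Tnfaip3 and Nfkbia the order was the reverse in antibody, with the 2 anti-ITGA5 groups lowest and IgG with fibronectin highest. The group of Tnfaip3 in IgG with fibronectin lay clear of the next, and all other neighbouring groups of Tnfaip3, Nfkbia, Rel and Nfkbie overlapped.

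**Figure D2:**
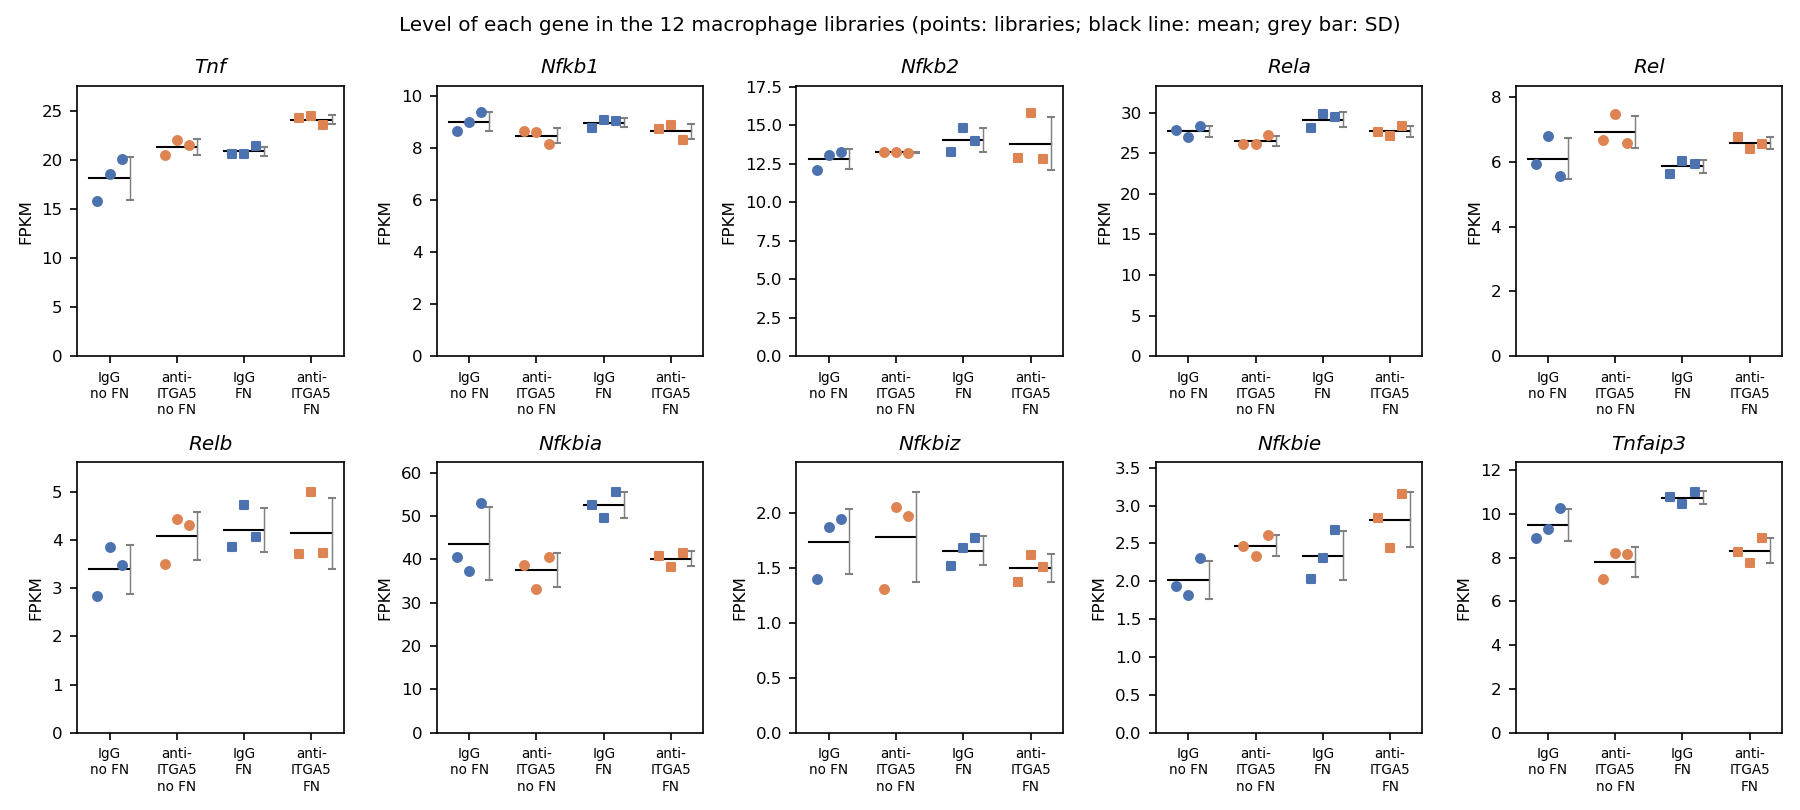
FPKM of the 10 genes in each library, with 1 panel per gene and a vertical axis from 0. Points are libraries (circles without and squares with fibronectin, blue IgG and orange anti-ITGA5), the line is the group mean and the grey bar the SD. Tnfaip3 lies lower and Tnf higher in every anti-ITGA5 library than in every IgG library on the same coating. Nfkbia is separated in this way with fibronectin.

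Among the subunits, levels per length stood in the order Rela, Nfkb2, Nfkb1, Rel and Relb in the mean of the 12 libraries, at 27.8, 13.5, 8.79, 6.36 and 3.96 FPKM. Rel (chromosome 11, 23736847 to 23770970, minus strand) encodes c-Rel, an activating subunit that is abundant in blood cells. With fibronectin its level was 5.63, 6.01 and 5.94 FPKM in IgG and 6.76, 6.39 and 6.55 FPKM upon ITGA5 neutralization. The libraries of these groups did not overlap. The log2 fold change was 0.16 (SE 0.0563, adjusted p = 0.0490), just inside the threshold. This call was lost in 13 of 16 alternative analyses, in which the adjusted p ranged from 0.0179 to 0.183, and every one of them kept the direction. Leaving out any single library ended it, at adjusted p-values of 0.0627 to 0.183. Without fibronectin Rel was at 5.94, 6.80 and 5.55 FPKM in IgG and at 6.69, 7.48 and 6.57 FPKM upon ITGA5 neutralization, where 1 IgG library lay among the antibody libraries. The log2 fold change there was 0.18 (SE 0.0860, adjusted p = 0.163), and with 1 library left out it lay between 0.12, without anti-ITGA5 without fibronectin replicate 2 or without IgG replicate 3, and 0.27, without IgG replicate 2.

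Rela (chromosome 19, 5637483 to 5648130, plus strand) encodes p65, the activating partner in the classical dimer. It was the most even member, with 26.1 FPKM in its lowest library and 29.8 FPKM in its highest. The antibody comparisons gave it a log2 fold change of -0.06 (95% interval -0.17 to 0.06, adjusted p = 0.475) without fibronectin and -0.08 (95% interval -0.18 to 0.03, adjusted p = 0.257) with fibronectin. Nfkb1 (chromosome 3, 135584655 to 135691547, minus strand), which encodes the precursor of p50, was nearly as even at 8.15 to 9.39 FPKM. Its log2 fold changes were -0.08 (95% interval -0.21 to 0.04, adjusted p = 0.320) and -0.06 (95% interval -0.15 to 0.04, adjusted p = 0.399). Without fibronectin, every anti-ITGA5 library of Nfkb1 was below every IgG library, at 8.66, 8.65 and 8.15 FPKM against 8.68, 9.02 and 9.39 FPKM, by a margin that is small beside the spread.

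Nfkb2 and Relb form the dimer of the non-canonical branch, with p52 made from the Nfkb2 precursor. Nfkb2 (chromosome 19, 46304737 to 46312090, plus strand) was at 12.1, 13.1 and 13.3 FPKM in IgG and at 13.2, 13.2 and 13.2 FPKM in anti-ITGA5 without fibronectin. With fibronectin it was at 13.3, 14.8 and 14.0 FPKM in IgG and at 12.8, 15.8 and 12.8 FPKM in anti-ITGA5. Its groups overlapped in both comparisons, with log2 fold changes of 0.05 (95% interval -0.08 to 0.18) and -0.02 (95% interval -0.20 to 0.15). Relb (chromosome 7, 19606217 to 19629438, minus strand) was at 2.85, 3.86 and 3.48 FPKM in IgG without fibronectin, the lowest group. Neutralization without coating gave 3.51, 4.43 and 4.32 FPKM. With fibronectin it was at 3.85, 4.73 and 4.07 FPKM in IgG and at 3.71, 4.99 and 3.72 FPKM upon neutralization. The log2 fold change of Relb upon ITGA5 neutralization was 0.27 (95% interval -0.02 to 0.56, adjusted p = 0.179) without fibronectin and -0.03 (95% interval -0.30 to 0.24, adjusted p = 0.894) with fibronectin. The value without fibronectin was 0.16 (adjusted p = 0.492) without IgG without fibronectin replicate 1, and at most 0.37 in any alternative. With 191 to 400 counts per library its intervals were wide, and the difference between the coatings did not pass the interaction test (log2 difference -0.30, 95% interval -0.72 to 0.12, adjusted p = 0.9997). Across the 12 libraries, log2 CPM (counts scaled to the library total) of Nfkb2 and Relb had a Pearson correlation of 0.845, a description of libraries that share groups and scaling.

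The annotation places Gm43430, at 3 to 32 counts per library, within Nfkb1 on the same strand, and Psd, at 65 to 123 counts, over part of Nfkb2 on the opposite strand. The strand setting of the counting is not given in the sources used here, so reads of Nfkb2 and Psd cannot be told apart where they overlap. The other 8 members overlap no annotated gene.

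Nfkbia encodes IkBα, the inhibitor that is degraded and resynthesized most rapidly. It was the most abundant member and, with fibronectin, the one with the largest fall. Without anti-ITGA5 with fibronectin replicate 3, Tnfaip3 fell slightly more there (log2 fold changes -0.42 and -0.41). Tnfaip3 also fell more without fibronectin. Nfkbia lies on chromosome 12 from 55489410 to 55492647 on the minus strand (ENSMUSG00000021025). With fibronectin its level was 52.4, 49.6 and 55.5 FPKM in IgG and 40.8, 38.2 and 41.5 FPKM upon ITGA5 neutralization, without overlap. The mean fell from 52.5 ± 2.99 to 40.2 ± 1.72 FPKM (SD, n = 3), or by 0.39 on the log2 scale (SE 0.0562, adjusted p = 0.000295). This call held in all 16 alternative analyses, at log2 fold changes from -0.43 to -0.35. Without fibronectin Nfkbia was at 40.5, 37.3 and 53.1 FPKM in IgG and at 38.8, 33.1 and 40.6 FPKM upon ITGA5 neutralization. IgG replicate 3 stood well above the other libraries, and the groups overlapped. The log2 fold change was -0.21 (SE 0.119, adjusted p = 0.247), and it was -0.04 (adjusted p = 0.800) without IgG without fibronectin replicate 3.

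Tnfaip3 encodes A20, a ubiquitin-editing enzyme that shuts off signalling upstream of the IkB kinase complex. It lies on chromosome 10 from 19000910 to 19015657 on the minus strand (ENSMUSG00000019850). With fibronectin its level was 10.8, 10.4 and 11.0 FPKM in IgG and 8.28, 7.76 and 8.91 FPKM upon ITGA5 neutralization. Without fibronectin it was 8.90, 9.30 and 10.3 FPKM in IgG and 7.03, 8.22 and 8.16 FPKM upon ITGA5 neutralization. On either coating, every anti-ITGA5 library lay below every IgG library. The log2 fold change was -0.37 (SE 0.0572, adjusted p = 0.000446) with fibronectin and -0.28 (SE 0.0801, adjusted p = 0.0320) without fibronectin. The call with fibronectin held in all 16 alternative analyses. Without fibronectin it was lost in 8 of 16, with adjusted p-values from 0.00330 to 0.162. Left-out libraries ended it in 4 cases, IgG without fibronectin replicates 1, 2 and 3 (adjusted p = 0.0552, 0.0788 and 0.139) and anti-ITGA5 without fibronectin replicate 1 (adjusted p = 0.126).

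Nfkbie and Nfkbiz were the least abundant inhibitors. Nfkbie (chromosome 17, 45555703 to 45563169, plus strand), which encodes the cytoplasmic inhibitor IkBε, had 98 to 168 counts per library. It was at 1.94, 1.82 and 2.30 FPKM in IgG and at 2.47, 2.34 and 2.61 FPKM in anti-ITGA5 without fibronectin, where the groups did not overlap. With fibronectin it was at 2.03, 2.31 and 2.67 FPKM in IgG and at 2.84, 2.43 and 3.16 FPKM in anti-ITGA5, with overlap. Its log2 fold changes were 0.30 (SE 0.131, adjusted p = 0.138) and 0.26 (SE 0.139, adjusted p = 0.186), opposite in sign to those of Nfkbia. Neither passed the test. Nfkbiz (chromosome 16, 55811375 to 55838899, minus strand) encodes IkBζ, an atypical family member that acts in the nucleus. It ranged from 1.31 to 2.05 FPKM, and its groups overlapped on both coatings. Its log2 fold changes were 0.03 (95% interval -0.37 to 0.44, adjusted p = 0.920) without and -0.15 (95% interval -0.41 to 0.11, adjusted p = 0.391) with fibronectin. At these counts, a fall of the size seen in Nfkbia lies within or close to the interval of Nfkbiz. The 95% intervals of Nfkbie, 0.0086 to 0.59 without and -0.04 to 0.56 with fibronectin, do not reach such a fall.

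In all, ITGA5 neutralization without fibronectin gave 1 of 10 members lower and 0 higher, where 9.79% and 11.0% of the 12924 genes tested were called lower and higher. Tnf and Nfkbie had unadjusted p-values of 0.0233 and 0.0447 there, and DESeq2 also called none higher. With fibronectin 2 members were lower and 2 higher, where 13.2% and 14.4% of 12916 genes were. By FPKM, 2 members were lower and 2 higher in every library of one group than in every library of the other without fibronectin, against 19.4% and 18.7% of genes. The same counts were found with fibronectin, against 20.6% and 21.7%. These shares of members lie near those of all genes. A 2-sided exact permutation test of 3 libraries against 3 cannot go below p = 0.10, the value it gave for each of these members. The median log2 fold change of the members was 0.04 and -0.04, beside 0.01 and 0.00 over all genes tested.

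**Figure D3:**
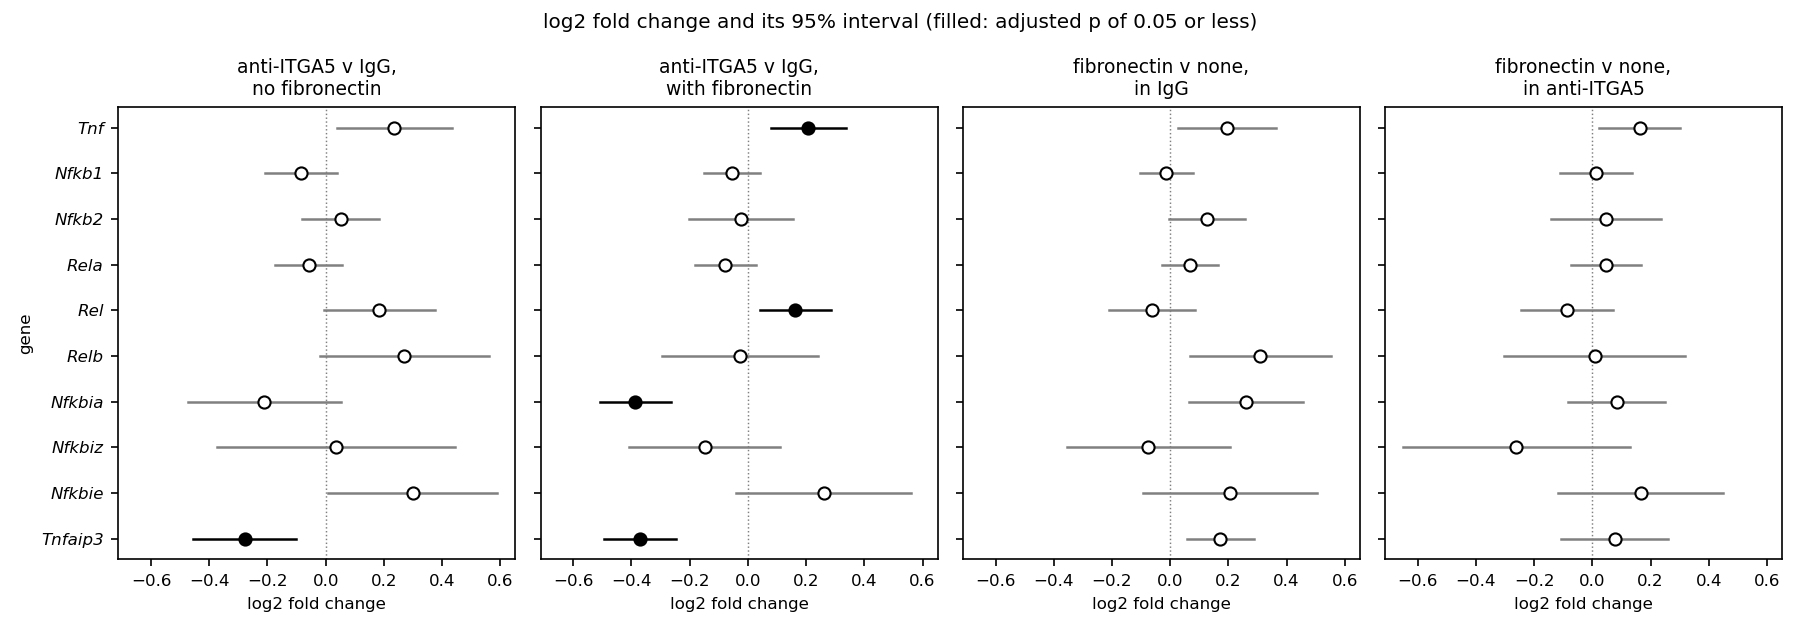
log2 fold change (horizontal axis) and its 95% interval for the 10 genes in the 4 comparisons, each of 3 libraries against 3. Filled points have an adjusted p of 0.05 or less: Tnfaip3 without fibronectin (-0.28), and Tnf (0.21), Rel (0.16), Nfkbia (-0.39) and Tnfaip3 (-0.37) with fibronectin.

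Whether the antibody effect on a member differed between coatings was tested as an interaction over the 12 libraries. None of the 10 members passed (adjusted p = 0.9997 for each), none had an unadjusted p-value below 0.05 and DESeq2 called none. Over all genes, 0.0223% of 13455 were called. The log2 difference was -0.18 (95% interval -0.49 to 0.13) for Nfkbia, -0.10 (95% interval -0.32 to 0.12) for Tnfaip3, -0.03 (95% interval -0.26 to 0.19) for Tnf and -0.02 (95% interval -0.25 to 0.20) for Rel. The difference of Nfkbia was -0.35 without IgG without fibronectin replicate 3 and -0.08 without replicate 2 of that group, and over all alternatives that of Tnfaip3 lay between -0.16 and -0.04. The calls with fibronectin that were absent without it are therefore not shown to differ between coatings.

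The balance of transcripts within a library was described by the ratio of the summed FPKM of the 4 inhibitors to that of the 5 subunits, a quantity that does not depend on library scaling. With fibronectin it was 1.12, 0.992 and 1.14 in IgG and 0.894, 0.793 and 0.921 upon ITGA5 neutralization, without overlap. The means were 1.08 ± 0.0783 and 0.870 ± 0.0675 (SD, n = 3; 2-sided exact permutation test, p = 0.10, which is the least this design can give). Without fibronectin it was 0.919, 0.841 and 1.13 in IgG and 0.851, 0.762 and 0.897 upon ITGA5 neutralization, with overlap (p = 0.30, 2-sided exact permutation test). Nfkbia makes up most of the inhibitor sum, so the ratio largely follows it. The subunit sum itself was 57.4 to 64.5 FPKM in all libraries.

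With fibronectin, Rel took 9.43%, 9.32% and 9.51% of the subunit sum in IgG and 11.3%, 10.1% and 11.0% upon neutralization (2-sided exact permutation test, p = 0.10). Its share without fibronectin was 10.3%, 11.4% and 9.25% in IgG and 11.5%, 12.5% and 11.0% in anti-ITGA5, with overlap (p = 0.20, 2-sided exact permutation test). Rela held between 44.8% and 47.0% of the sum in the mean of each group. Its libraries overlapped on both coatings. The share of Nfkb1 was lower upon neutralization in every library without fibronectin, at 15.1%, 15.1% and 15.6% in IgG and 14.9%, 14.4% and 13.7% in anti-ITGA5 (2-sided exact permutation test, p = 0.10), and overlapped with fibronectin. Those of Nfkb2 and Relb overlapped on both coatings. Between the IgG groups, every library with fibronectin had a lower Nfkb1 share and a higher Nfkb2 share than every library without it (2-sided exact permutation test, p = 0.10 for each). Across the 12 libraries log2 CPM of Rel and Nfkbia ran opposite, with a Pearson correlation of -0.868, while Nfkbia and Tnfaip3 ran together at 0.817. The libraries share groups and depth, so these coefficients are descriptions.

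**Figure D4:**
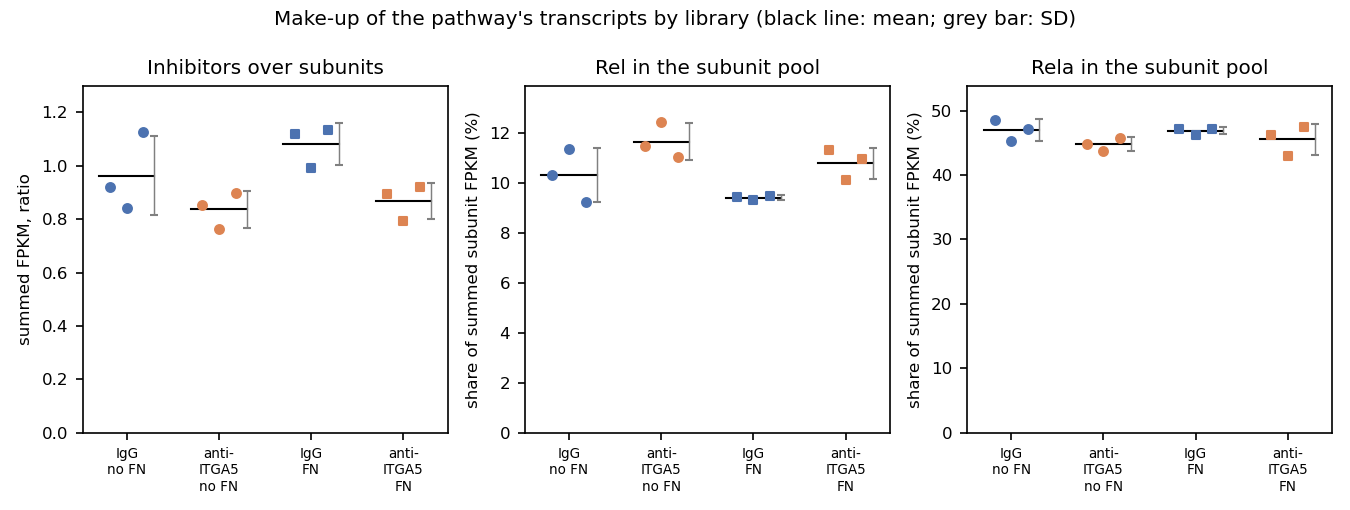
Ratio of summed inhibitor FPKM to summed subunit FPKM (left), and the percent share of Rel (middle) and Rela (right) in the summed subunit FPKM, by library, with the group mean (line) and SD (grey bar). With fibronectin the ratio is lower and the Rel share higher in each of the 3 anti-ITGA5 libraries than in each IgG library, whereas the Rela shares overlap.

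Fibronectin itself was compared with no coating to ask how the matrix alone bears on these genes. In IgG none of the 10 members passed, where 0.124% of 12925 genes were called lower and 0.325% higher. There were 4 members with an unadjusted p-value below 0.05, all higher with fibronectin, where 9.79% of all genes tested had one. They were Relb with a log2 fold change of 0.31 (adjusted p = 0.355), Nfkbia with 0.26 (adjusted p = 0.328), Tnf with 0.19 (adjusted p = 0.426) and Tnfaip3 with 0.17 (adjusted p = 0.246). DESeq2 gave Tnf and Relb no adjusted p in this comparison, and its adjusted p-values for Nfkbia and Tnfaip3 were 0.490 and 0.138. With a block on replicate number, edgeR called 416 genes in place of 58. Nfkbia, Tnfaip3 and Relb were then among them (adjusted p = 0.000374, 0.0225 and 0.0423). Without IgG without fibronectin replicate 3, the log2 fold change of Nfkbia was 0.43 (adjusted p = 0.00556), and without replicate 2 of that group it was 0.16 (adjusted p = 0.631). Without IgG without fibronectin replicate 1, Tnf was at 0.10 (adjusted p = 0.843) and Relb at 0.20 (adjusted p = 0.792). In anti-ITGA5 no member passed either, where 0% of 12863 genes were called lower and 0% higher. Tnf was the 1 member with an unadjusted p-value below 0.05, at a log2 fold change of 0.16 (adjusted p = 0.979). Among all genes 461 had one, DESeq2 called 5 genes and no member. The coating comparisons share their libraries with the antibody comparisons. The IgG libraries with fibronectin that make Nfkbia and Tnfaip3 high in one comparison are the baseline of the other.

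The remainder of the pathway was read from lists of its parts. Beside the counts of each list stand those of all genes tested, of which 9.79% were called lower and 11.0% higher without fibronectin, and 13.2% and 14.4% with fibronectin. In either direction together these are 20.8% and 27.6%. The other 3 IkB family members, Nfkbib, Nfkbid and Bcl3, were not called on either coating. Bcl3, a nuclear co-regulator, came nearest, with log2 fold changes of -0.34 (adjusted p = 0.0582) and -0.21 (adjusted p = 0.154). Of 11 genes of the IkB kinase complex and its upstream kinases, 1 fell and 0 rose without fibronectin, and 2 fell and 1 rose with fibronectin. The share called was 9.09% and 27.3%, no higher than over all genes. Ikbkg, which encodes NEMO, the regulatory subunit of the kinase complex, fell on both. Its level was 17.6 to 18.2 FPKM in IgG and 13.1 to 13.5 FPKM upon ITGA5 neutralization without fibronectin, and 18.4 to 19.7 FPKM and 13.4 to 14.2 FPKM with fibronectin. The log2 fold changes were -0.42 (SE 0.0470, adjusted p = 0.000168) and -0.45 (SE 0.0453, adjusted p = 1.88e-05), larger in size than those of any of the 10 members.

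Among 17 ubiquitin ligases and adaptors of the TNF and Toll-like receptor branches, 4 fell and 2 rose on either coating, or 35.3% called. Over all genes tested, 20.8% were called without and 27.6% with fibronectin. The 2 that rose are a share near that of all genes. Irak2 and Irak1, kinases that relay Toll-like receptor signals, fell on both, with log2 fold changes of -0.45 and -0.31 for Irak2 and -0.23 and -0.21 for Irak1. Traf6, the ligase they act through, fell by 0.19 and 0.17 on the log2 scale. Rbck1, which encodes HOIL-1, a component of the linear ubiquitin ligase, rose by 0.25 and 0.26. Of 12 other brakes on the pathway, 2 fell and 1 rose without fibronectin and 1 fell with fibronectin, or 25% and 8.33% called. Itch, a ligase that works with A20, fell in both comparisons (log2 fold changes -0.17 and -0.15). The other 9 and 11 of these brakes were not called.

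Around Tnf itself, 5 of 8 genes for its release, receptors and related ligands were measured well enough to test. Tnfrsf1b, the second TNF receptor, was at 62.9 to 74.7 FPKM in IgG and fell to 46.2 to 51.1 FPKM on uncoated dishes. On fibronectin it fell from a range of 71.6 to 76.9 FPKM to one of 47.5 to 54.2 FPKM. The log2 fold changes were -0.51 (adjusted p = 0.000607) and -0.55 (adjusted p = 1.49e-05). The list had 1 and 2 genes lower and none higher. Of the 9 regulators of Tnf mRNA, 1 fell and 1 rose without fibronectin, and 2 fell and 2 rose with fibronectin. The share called was 22.2%, near the 20.8% of all genes, and 44.4%, beside 27.6% of all genes. Zfp36l2, a relative of the protein that marks Tnf mRNA for decay, fell (log2 fold changes -0.45 and -0.37, adjusted p = 0.000697 and 9.36e-05). Hnrnpd, which encodes the RNA-binding protein AUF1, rose by 0.22 and 0.27 (adjusted p = 0.0161 and 0.00200). Of the 5 receptors of the non-canonical branch, 4 were tested, and 1 fell, with fibronectin.

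Of 32 classic NF-kB target genes, 25 were tested without fibronectin, and 3 fell and 6 rose. With fibronectin 24 were tested, and again 3 fell and 6 rose. The share called in either direction was 36% and 37.5%, beside 20.8% and 27.6% of all genes tested. The medians were -0.02 and -0.02, beside 0.01 and 0.00 over all genes. The chemokine genes Ccl4, Ccl2 and Ccl3, which recruit monocytes and other leukocytes, rose by 0.61, 0.45 and 0.43 without fibronectin and by 0.64, 0.56 and 0.54 with fibronectin (log2 scale). Ccl4 went from 132.3 to 150.8 FPKM in IgG to 205.1 to 233.0 FPKM without fibronectin, and Ccl2 from 570.5 to 625.6 to 723.7 to 901.7 FPKM. Clec4e, which encodes the pattern recognition receptor Mincle, rose by 0.48 and 0.39. Called targets lay on both sides of 0 on either coating. The log2 fold change of Tnf was smaller than that of each of these 4 genes. For fibronectin in IgG, 24 targets were tested, and 3 rose and 0 fell, or 12.5% called. Among all genes tested there, 0.325% rose and 0.124% fell. No gene of the other pathway lists was called in that comparison, and no target was called for fibronectin in anti-ITGA5.

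**Figure D5:**
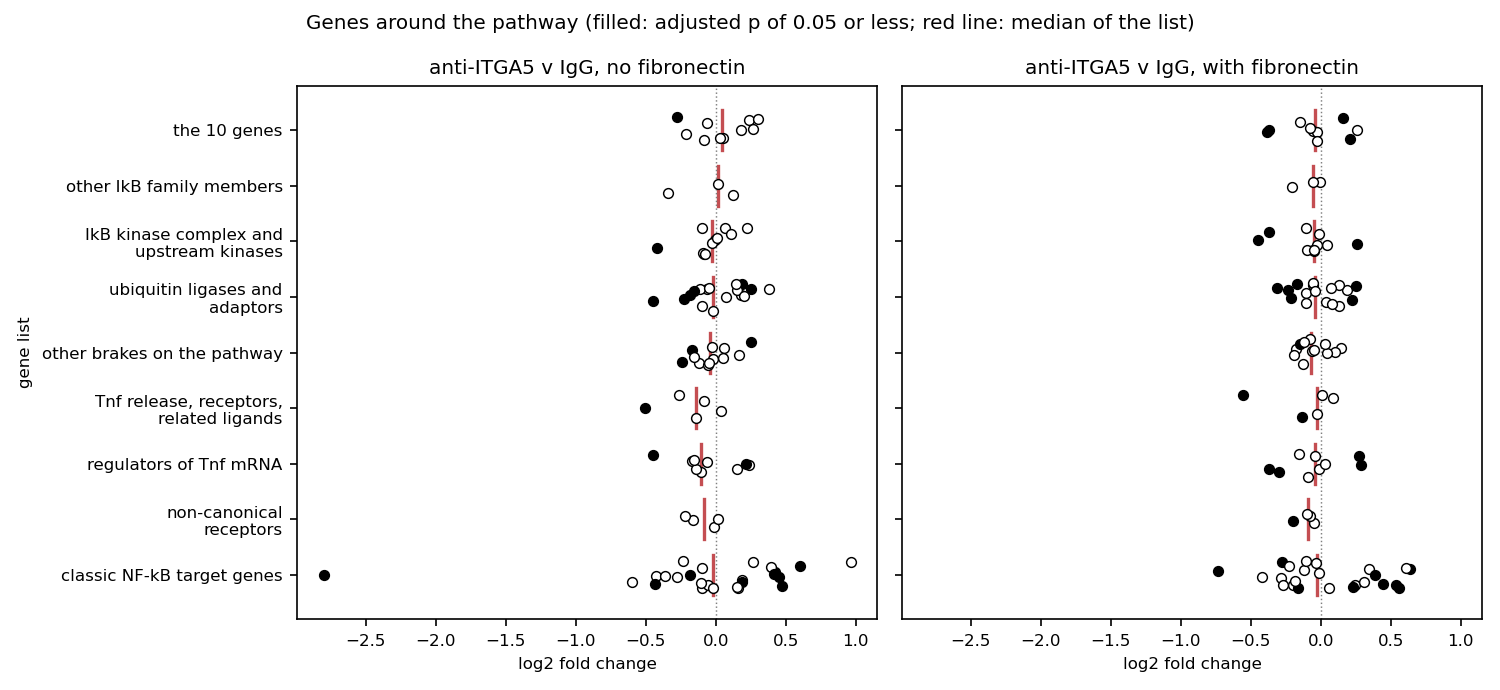
log2 fold change upon ITGA5 neutralization of each tested gene of the 10 members and of 8 lists of pathway genes, without (left) and with (right) fibronectin. Filled points have an adjusted p of 0.05 or less and red lines are list medians. The medians lie close to 0, with called genes on both sides in the NF-kB target list (3 lower and 6 higher on each coating).

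Leaving out anti-ITGA5 without fibronectin replicate 2, the least deep library, changed some of these list counts by more than 1.5 times. Over all genes the number called in either direction rose as well, from 2684 of 12924 to 3834 of 13161. The genes called lower went from 1 to 3 among the kinases, from 3 to 5 among the targets, from 1 to 2 among regulators of Tnf mRNA, from 2 to 1 among the other brakes, from 0 to 1 among the other IkB family members and from 0 to 1 among the non-canonical receptors. The genes called higher among ubiquitin ligases and adaptors went from 2 to 1.

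The genes whose log2 CPM most resembled those of Tnf over the 12 libraries were Clec4e, Lipn, Akr1b3, Srd5a1 and Rpp14, with Pearson correlations of 0.906, 0.902, 0.889, 0.887 and 0.879 among 11686 genes compared. Clec4e was called higher upon ITGA5 neutralization on both coatings and on fibronectin in IgG (log2 fold change 0.40, adjusted p = 0.00344), while Tnf missed that threshold in IgG. Among the members Nfkbie was nearest to Tnf, at 0.760.

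Other features of the cells moved with the antibody beside the changes in Nfkbia, Tnfaip3, Tnf and Rel. The summed level of 17 proliferation genes was 491.7 to 580.6 FPKM in IgG and 785.8 to 859.7 FPKM upon ITGA5 neutralization without fibronectin, and 500.9 to 597.0 FPKM and 749.9 to 933.1 FPKM with fibronectin, with 14 of 17 genes called higher on each coating. The 8 macrophage markers summed to 8979 to 9828 FPKM in IgG and 6074 to 7478 FPKM in anti-ITGA5 without fibronectin, and to 9555 to 9770 FPKM and 7327 to 7465 FPKM with fibronectin. Lyz2, the lysozyme gene, made up most of this sum, at 7149 to 7988 FPKM in IgG and 4559 to 5789 FPKM in anti-ITGA5 without fibronectin. Of the 8 markers 4 and 5 were called lower, and none higher. Adgre1, which encodes a macrophage surface receptor, was not called, with log2 fold changes of 0.02 (adjusted p = 0.866) and 0.10 (adjusted p = 0.0517). The 8 neutrophil markers summed to 8.49 to 10.4 FPKM and 6.51 to 7.68 FPKM without fibronectin, and to 9.06 to 10.1 FPKM and 5.71 to 7.63 FPKM with fibronectin. Csf3r, at 3.71 to 6.16 FPKM, and S100a8, at 1.32 to 3.42 FPKM over the 12 libraries, made up most of these sums. Of the neutrophil markers tested, 1 of 2 without and 2 of 3 with fibronectin were called lower, and none higher. Ly6g, another of the 8, was at 0 in every library. The part of these shifts in the changes of Nfkbia, Tnfaip3, Tnf and Rel was not tested.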

How the data were processed

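RNA-seq of 12 macrophage libraries was analysed. The authors deposited raw counts per gene and FPKM per gene. Their processing notes and methods name TopHat2 2.0.9, HTSeq 0.6.1, Cufflinks 2.1.1 and GRCm38.p6, and poly(A) RNA read in pairs. The annotation release is not given in the sources used here. FPKM depend on 1 gene length per gene and were used for levels. Counts were tested with edgeR 4.0.16 in R 4.3.3 (filterByExpr with minimum count 10 and minimum total count 15, TMM, quasi-likelihood test, Benjamini-Hochberg adjustment over all genes tested, threshold 0.05), with 6 libraries per comparison and 12 for the interaction. A standard error is the log2 fold change divided by the square root of F. The test sets the difference between groups against the spread between these libraries, estimated with information shared over genes. On simulated counts with a log2 change of 0.4, edgeR recovered 65 of 100 changed genes without fibronectin and 77 of 100 with fibronectin. Far fewer genes were changed there than were called in the data, and 0.4 exceeds the size of every member's change upon neutralization. The recovery therefore does not describe the members.

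The members and gene lists were chosen with earlier results of these data known. Genes named from lists were called in both antibody comparisons with 1 sign, at most 4 per list by mean size, and the 5 genes nearest to Tnf by Pearson correlation, with at least 10 counts per library. Bcl3 was named after its values were seen. Alternatives were DESeq2 1.42.0, other scaling and filters, limma 3.58.1 on log2(FPKM + 1) or log2(FPKM + 0.1), all libraries in one fit, a replicate block, a threshold of 0.01 and each library left out. The list counts without 1 library were added after seeing the data. Motif search used the RefSeq promoter table, with exons from GENCODE on the same build.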

Additional observations from a re-analysis of the deposited data

How the results depend on the processing

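The falls of Nfkbia and Tnfaip3 with fibronectin kept their direction and call in 16 of 16 alternatives each, and the count of members lower there was 2 in each. The count lower without fibronectin was 0 with total counts, in the limma fits with either pseudocount and with or without the filter on FPKM, and at a threshold of 0.01, and 2 with every gene of at least 1 count. It ranged from 0 to 1 over left-out libraries. The count higher without fibronectin was 1 with all libraries in one fit (Tnf, adjusted p = 0.0334). It was 3 with the replicate block (Tnf, Rel and Relb, at adjusted p-values of 0.0410, 0.0375 and 0.0448). With fibronectin it was 1 with DESeq2, with every gene of at least 1 count, with at least 10 counts in every library and with the 3 limma fits, and 0 with all libraries in one fit and at a threshold of 0.01; left-out libraries gave 0 to 1. For fibronectin in IgG the count higher was 1 with every gene of at least 1 count and 3 with the replicate block (Relb, Nfkbia and Tnfaip3), and 0 to 1 over left-out libraries. Calls over all genes moved in the same fits: without fibronectin they went from 2684 to 3282 with all libraries in one fit and 2968 with the block, and for fibronectin in IgG from 58 to 241 with every gene and 416 with the block. Same-number correlations of deviations were weak, between 0.032 and 0.149 in both antibody comparisons and between 0.0548 and 0.138 for fibronectin in IgG. For fibronectin in anti-ITGA5 they were as low as -0.0196. In all but the last of these comparisons, each library correlated best with its own number. Weak pairing by replicate number is therefore not excluded there.

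Some small log2 fold changes took the other sign. Under scaling by total counts, Nfkb2 and Relb were at 0.016 and 0.012 with fibronectin, and Nfkb1 and Relb at -0.0025 and -0.0072 for fibronectin in anti-ITGA5, where Relb was at -0.0022 with the replicate block. Over left-out libraries, Nfkbiz ranged from -0.10 to 0.22 without fibronectin; Nfkb2 from -0.13 to 0.029 and Relb from -0.19 to 0.060 with fibronectin. For fibronectin in IgG, Rel ranged from -0.12 to 0.025, Nfkb1 from -0.041 to 0.019 and Nfkbiz from -0.21 to 0.016. For fibronectin in anti-ITGA5, Nfkb1 ranged from -0.019 to 0.037, Relb from -0.15 to 0.087 and Nfkb2 from -0.059 to 0.10. The interaction ranged from -0.11 to 0.059 for Tnf, from -0.15 to 0.063 for Nfkbie, from -0.0024 to 0.064 for Nfkb1, from -0.11 to 0.044 for Rel and from -0.046 to 0.0030 for Rela. The difference in the inhibitor to subunit ratio for fibronectin in anti-ITGA5 ranged from -0.0046 to 0.071. The cause of these shifts was not tested. Depth limits Nfkbie and Nfkbiz most, at 98 to 203 counts per library.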
